A study of Mus musculus with 12 samples.

Results

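The comparison described here is that of Ccnd1-/- with Ccnd1+/+ mammary glands under estradiol, taken across all 18193 measured genes. It uses 6 of the 12 arrays of the study, the 3 titled Ccnd1-/- E2 and the 3 titled Ccnd1+/+ E2, and gives each gene 1 value, from the probe set that was brightest on average over the 12 arrays. Each array carried total RNA of mammary gland from 1 mouse on the C57BL/6 background. All mice were virgin females without ovaries, so that estrogen came from the implanted pellet. The estradiol groups, wildtype (Ccnd1+/+) and knockout (Ccnd1-/-), carried a 0.72 mg pellet made for 60-day release and were killed after 7 days. The other 6 arrays, 3 of each genotype on placebo, entered the fit and so shaped each gene's estimated spread and the calls under estradiol. They also serve to set the difference under estradiol beside that without the hormone. The labels say nothing of the deleted stretch of Ccnd1, of the gland taken or of its lymph node, and they name no promoter or Cre that would limit the loss of Ccnd1 to the gland.

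Cyclin D1 binds the kinases CDK4 and CDK6, and the complex phosphorylates the retinoblastoma protein and so frees E2F factors to start DNA replication. It also binds the estrogen receptor and other transcription factors without a kinase. In the mammary gland estradiol acts through receptors in luminal cells and stroma, induces the progesterone receptor and drives growth of the ducts. Mice without cyclin D1 are known for poor alveolar growth of the gland in pregnancy.

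The array medians lay between 5.73 and 5.80 log2 units, pairs of the 12 arrays correlated at 0.937 to 0.993 across genes, and 5 of the 6 estradiol arrays were closest to an array of their own genotype. Adipoq, the adipocyte hormone adiponectin, stood at 13.61, 13.58 and 13.65 in wildtype and at 13.58, 13.60 and 13.65 in knockout. Krt8, a luminal keratin, stood at 11.10, 12.96 and 12.02 in wildtype and at 8.79, 5.65 and 7.48 in knockout. The arrays of the 2 genotypes overlapped for Adipoq and did not overlap for Krt8, whose difference missed the threshold used below (adjusted p = 0.059). In whole tissue, fewer cells of a type and less RNA per cell cannot be told apart.

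Ccnd1 itself checked the labels. Its log2 level was 9.90, 10.82 and 9.35 in wildtype estradiol arrays 1, 2 and 3 and 7.55, 7.44 and 7.24 in knockout. The lowest wildtype array stood above the highest knockout array. The difference was -2.62 ± 0.31 (SE, 3 arrays against 3, limma adjusted p = 0.0094), and 2 further probe sets of the gene gave -1.47 and -1.26. An exact two-sided permutation of the 6 arrays gave p = 0.1, the smallest that 20 arrangements allow. On placebo the difference was -1.25, without overlap of the arrays, but it was not called (limma adjusted p = 0.9999). Which part of the transcript the probes read is not known here, so the level left in knockout is not a measure of intact transcript.

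Under estradiol, most of the genes called between the genotypes were lower in knockout. Limma called 204 of 18193 genes (1.12%) at an adjusted p under 0.05, of which 198 (1.09%) fell and 6 (0.033%) rose in knockout. The falls had a median of -1.26 and ran from -0.48 to -5.20, with 140 of them over 1, 52 over 2 and 19 over 3 log2 units. Over all genes the median difference was 0.03 and 44.8% of differences were below 0. At an unadjusted limma p under 0.05 the split was less uneven, with 1607 genes lower and 850 higher. In each of the 204 the knockout and wildtype arrays did not overlap, and the same held for 22.3% of all genes (11.8% lower, 10.5% higher). Knockout estradiol array 3 decided the count: without it limma called 0 genes, with a smallest adjusted p of 0.0513 and 1779 genes at an unadjusted p under 0.05, against 2457 on all arrays. Other arrays moved it by over 1.5 times as well, to 58 without knockout estradiol array 1, 32 without array 2, 109 and 49 without wildtype estradiol arrays 2 and 3, and 125 and 315 without wildtype placebo arrays 2 and 3. All 204 differences kept their sign whichever array was left out, which was certain beforehand because their arrays did not overlap. In 15 of the 198 falls all 3 knockout arrays lay under the lower quartile of their array, so that the size of those falls may be understated. Of the 198 genes 102 had more than 1 probe set, and in 27 of these another probe set lay above 0.

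**Figure D1:**
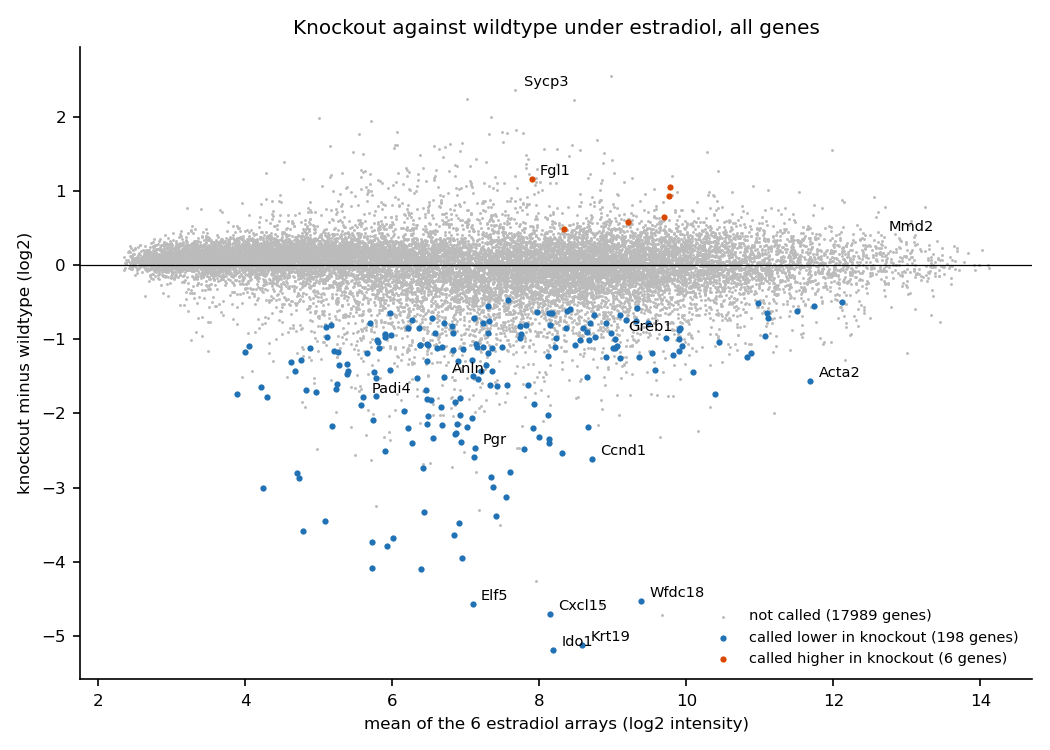
Knockout minus wildtype difference under estradiol (log2, vertical) against the mean level of the 6 estradiol arrays (log2 intensity, horizontal), 1 point per gene. The 198 blue points called lower reach -5.20, while the 6 orange points called higher reach 1.16.

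A measure that changes with RNA quality differed between the genotypes under estradiol. The log2 difference between the control probe sets at the 3' and 5' ends of Gapdh, which grows as RNA is degraded or copied only in part, was 2.55, 2.41 and 3.09 in wildtype estradiol arrays and 3.22, 3.56 and 3.47 in knockout. The groups did not overlap, although wildtype array 3 came near the lowest knockout array. On placebo it was 3.04, 3.26 and 2.10 in wildtype and 3.26, 3.20 and 3.31 in knockout, and the groups overlapped. With this difference as a covariate limma called 0 genes (smallest adjusted p 0.0849, 2262 genes at an unadjusted p under 0.05). All 204 signs were kept, and the median of the 198 falls was then -1.10. Because the measure separated the genotypes under estradiol, this fit cannot tell its part from that of genotype. Whether the measure reflects RNA quality or tissue make-up here was not tested.

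The largest falls were those of Ido1, Krt19 and Cxcl15. Ido1, an enzyme that degrades tryptophan, stood at 9.89, 11.98 and 10.50 in wildtype and at 7.03, 4.50 and 5.24 in knockout, a difference of -5.20 ± 0.64 (SE, adjusted p = 0.0114). Every knockout array was below every wildtype array by over 2 log2 units, and knockout array 1 was the highest of its group. Krt19, a keratin of simple epithelia, stood at 10.40, 11.84 and 11.18 in wildtype and at 7.72, 4.40 and 5.92 in knockout, a difference of -5.13 ± 0.90 (SE, adjusted p = 0.0274). Cxcl15, a secreted chemokine, stood at 10.22, 11.22 and 10.04 in wildtype and at 6.94, 5.17 and 5.24 in knockout, a difference of -4.71 ± 0.48 (SE, adjusted p = 0.00606). In each of these genes wildtype array 2 was the highest of its group.

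Next in size were Elf5, described with the luminal genes, and Wfdc18, a secreted protein with a whey acidic protein domain, which fell by 4.53 while its relative Wfdc2 fell by 2.48. Dsp, which encodes desmoplakin, the plaque protein of desmosomes, fell by 4.11, with its other probe sets between -4.05 and -0.11. Cldn7, a claudin of tight junctions, fell by 3.95 and Cdh1, which encodes E-cadherin, fell by 3.79. Cdh1 stood at 7.03, 8.97 and 7.46 in wildtype and at 3.71, 3.75 and 4.62 in knockout. Muc15, a membrane mucin, fell by 3.73 (95% interval -5.06 to -2.40). Slc5a8, a transporter of monocarboxylates, fell by 4.09 (95% interval -5.19 to -2.99). All 3 knockout arrays of both genes lay under the lower quartile, so these falls may be understated. Slc5a8 read 6.61, 8.90 and 7.77 in wildtype. Esrp1, a splicing regulator of epithelial cells, fell by 3.67, from 6.78, 9.05 and 7.73 in wildtype to 4.19, 4.0 and 4.33 in knockout.

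**Figure D2:**
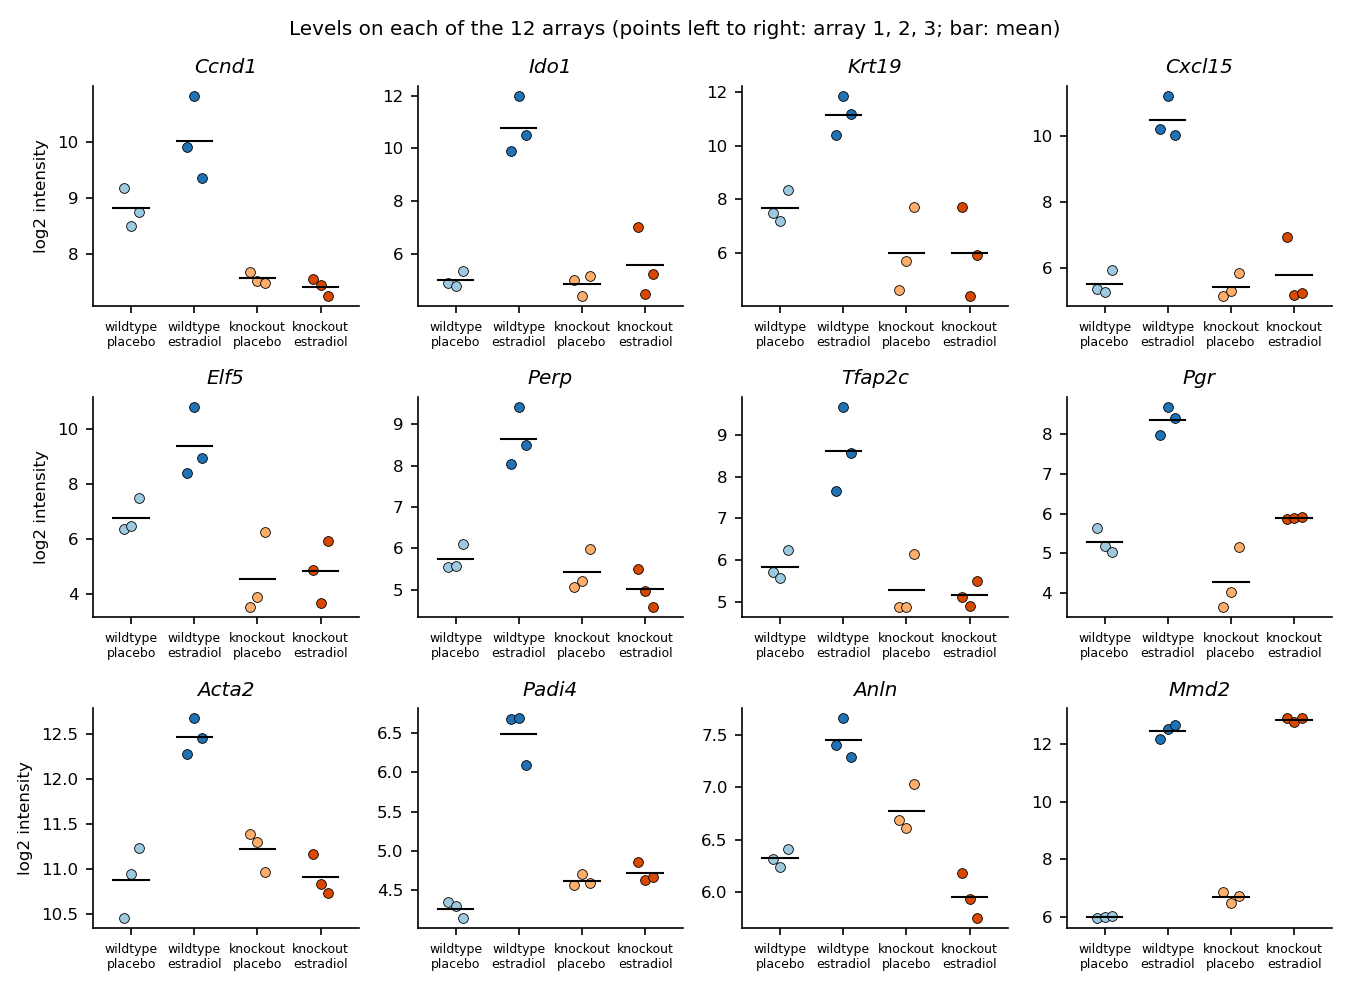
Log2 intensity of 12 genes on each of the 12 arrays, by genotype and treatment, with a bar at each group mean. In 11 of them the 3 knockout estradiol arrays lie below the 3 wildtype estradiol arrays, while Mmd2 stands at 12.15 to 12.65 in wildtype and at 12.75 to 12.89 in knockout.

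Of 23 measured luminal genes 6 fell (Krt19, Elf5, Cldn7, Krt7, Prom1 and Cldn4), none rose, and 17 had knockout arrays all below wildtype, where 1.09% of all genes fell and 11.8% were lower without overlap. The list's median difference was -1.96. Elf5, the transcription factor that directs alveolar cells, stood at 8.40, 10.80 and 8.94 in wildtype and at 4.86, 3.64 and 5.92 in knockout, a difference of -4.57 ± 0.85 (SE, adjusted p = 0.0359), while its other probe set differed by -0.26. Krt7 fell by 3.38, the membrane protein Prom1 fell by 2.40 and Cldn4 fell by 2.20. Krt8 and Krt18, the keratin pair of luminal cells, had differences of -4.72 and -4.26 (adjusted p = 0.059 and 0.0549) and missed the threshold. Not every luminal gene was low: Epcam, an adhesion molecule of epithelia, stood at 7.83, 7.59 and 7.64 in wildtype and at 7.31, 7.56 and 7.79 in knockout, and Spdef and Tnfsf11 differed by 0.02 and 0.21. The mean of the luminal genes, each centred over the 12 arrays, was 0.68, 2.09 and 1.22 in wildtype and -0.52, -1.15 and -0.66 in knockout.

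Of 18 basal and myoepithelial genes 5 fell and none rose, with a median of -1.01 and 14 members lower without overlap, against the same 1.09% called and 11.8% without overlap of all genes. The 5 were the contractile genes Cnn1 (-2.15), Actg2 (-1.79), Acta2 (-1.56) and Tagln (-1.01) and the hemidesmosome integrin Itgb4 (-1.61). Acta2, smooth muscle actin, stood at 12.27, 12.67 and 12.45 in wildtype and at 11.16, 10.83 and 10.73 in knockout, with adjusted p = 0.0151, and its other probe sets differed by -0.30 and -0.29. Smooth muscle of vessels also carries Acta2, Tagln and Cnn1, so they do not belong to basal cells alone. The basal keratins Krt14 (-1.93, adjusted p = 0.0826), Krt5 (-1.01) and Krt17 (-0.96) missed the threshold. Oxtr, the oxytocin receptor through which these cells contract, stood at 11.48, 11.74 and 11.53 in wildtype and at 11.61, 11.85 and 11.96 in knockout. Its knockout and wildtype arrays overlapped.

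Among 15 genes of milk and alveoli 1 fell, Elf5, where 1.09% of all genes fell. Csn3, which encodes kappa casein, stood at 10.55, 11.46 and 11.38 in wildtype and at 7.88, 4.84 and 6.90 in knockout (-4.59, adjusted p = 0.068). Csn2 and Wap, the beta casein and whey acidic protein genes of late pregnancy, differed by 0.03 and 0.06. Of the 15, 9 were below 0 and 5 were lower without overlap, shares set against 44.8% and 11.8% of all genes.

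**Figure D3:**
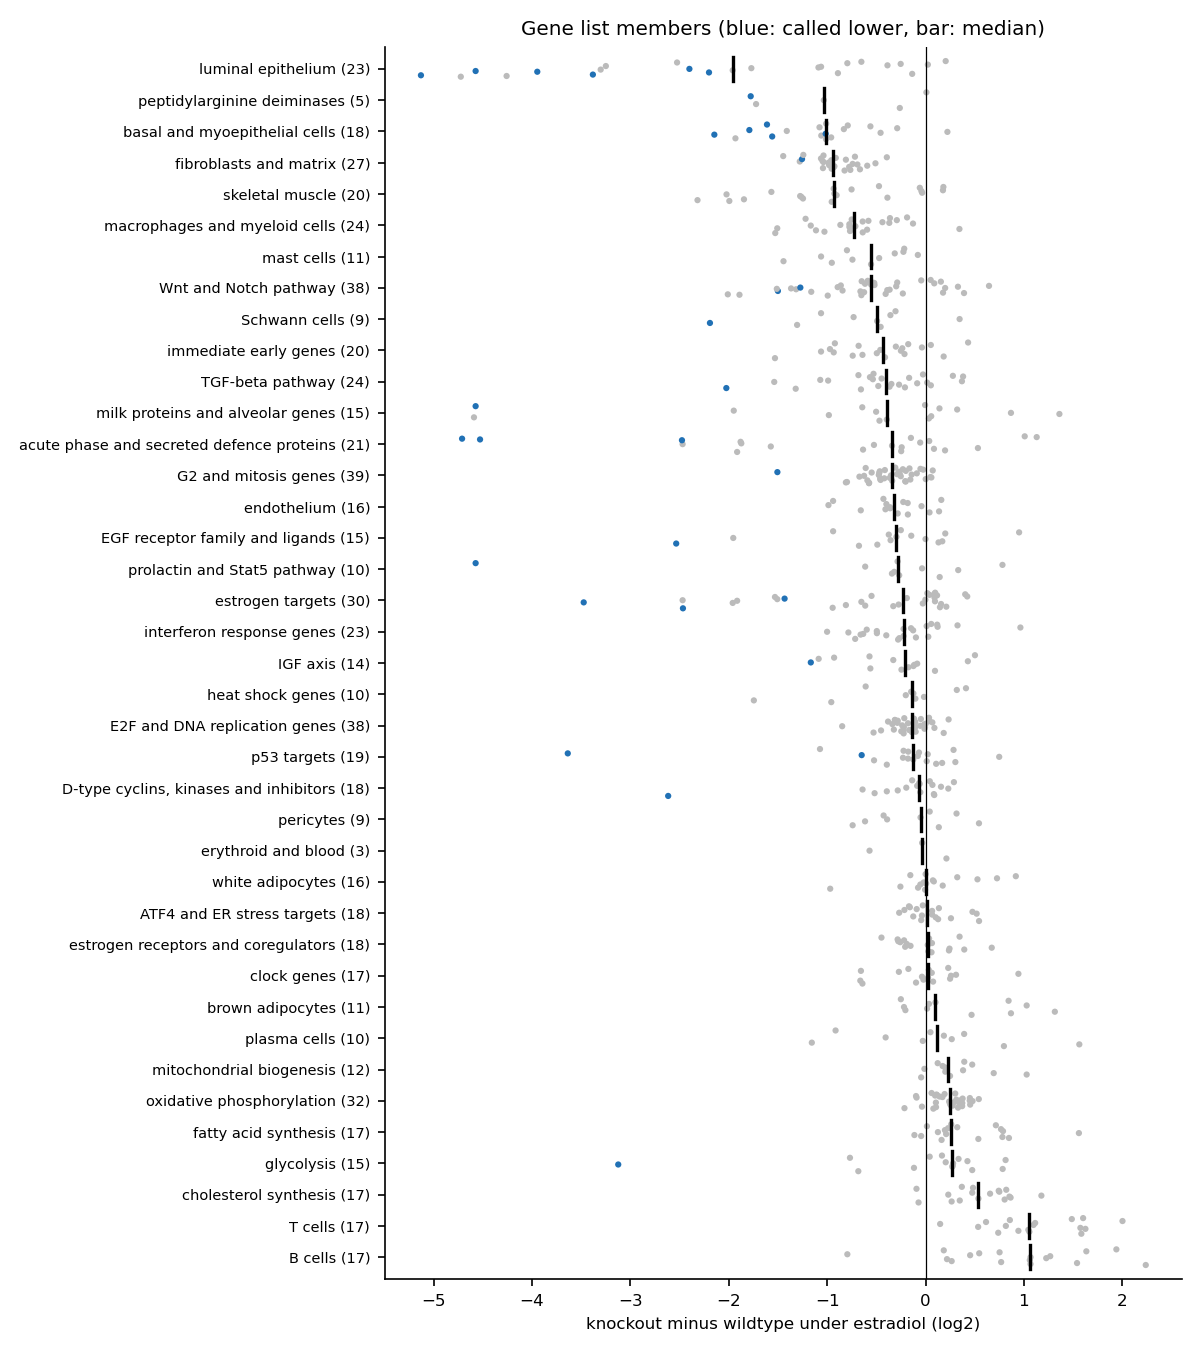
Knockout minus wildtype differences under estradiol (log2) of the members of 39 gene lists, with the number measured in parentheses, a bar at the list's median and members called lower in blue. The luminal list has the lowest median (-1.96) and the B cell and T cell lists the highest (1.06 each).

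Padi4 and Anln were the genes whose difference under estradiol also differed by test from that on placebo, and Pgr is the classical estrogen-induced gene of the gland. The 250 bases before their RefSeq starts (GRCm38.p6) are therefore shown, for Padi4 at chr4:140774204-140774453 on the minus strand, for Anln at chr9:22389207-22389456 on the minus strand and for Pgr at chr9:8899583-8899832 on the plus strand. They run 5' to 3', and capitals mark an AP-1 letter run (TGANTCA) in Padi4 and a CHR run (TTTGAA or its complement) in Pgr. The last line is a 30-base stretch after the start of Anln, at chr9:22389165-22389194 on the minus strand, in which capitals mark a pair of CHR runs. CHR is the cell cycle homology region that many mitotic genes carry. Its letters were in 12.7% of the promoter windows of genes that fell and in 13.4% of those of measured genes. For AP-1 letters these shares were 9.27% and 6.35%. CHR was added after the promoter letters were seen. Ccnd1 is named without a sequence.
Padi4: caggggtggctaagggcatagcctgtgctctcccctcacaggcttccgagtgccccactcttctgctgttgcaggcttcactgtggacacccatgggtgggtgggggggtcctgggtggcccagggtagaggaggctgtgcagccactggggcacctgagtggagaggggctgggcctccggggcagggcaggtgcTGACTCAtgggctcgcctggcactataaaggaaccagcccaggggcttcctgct
Anln: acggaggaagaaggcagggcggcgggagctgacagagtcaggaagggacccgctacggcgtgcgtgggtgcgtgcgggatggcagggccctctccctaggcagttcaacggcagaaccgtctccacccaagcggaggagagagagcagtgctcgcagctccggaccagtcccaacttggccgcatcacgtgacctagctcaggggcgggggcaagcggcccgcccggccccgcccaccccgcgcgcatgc
Pgr: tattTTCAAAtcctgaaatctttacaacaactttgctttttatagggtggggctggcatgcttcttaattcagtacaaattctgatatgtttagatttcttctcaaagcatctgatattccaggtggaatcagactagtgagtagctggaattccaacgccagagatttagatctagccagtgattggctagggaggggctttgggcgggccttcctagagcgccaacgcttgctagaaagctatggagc
Anln after the start: gcgctgaaaTTCAAAtTTTGAAcggccgtg

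Padi4, an enzyme that turns arginine of histones and other proteins into citrulline, stood at 6.69, 6.70 and 6.09 in wildtype and at 4.85, 4.63 and 4.66 in knockout, a difference of -1.78 ± 0.16 (SE, adjusted p = 0.00606). On placebo it read 4.34, 4.29 and 4.13 in wildtype and 4.56, 4.70 and 4.59 in knockout, so that the wildtype estradiol arrays were the only high ones of the 12. The placebo difference of 0.36 had the opposite sign, without overlap of the arrays. Of the 5 measured peptidylarginine deiminase genes Padi4 was the one that fell, where 1.09% of all genes fell. Padi2 stood at 7.62, 9.47 and 8.15 in wildtype and at 6.40, 7.28 and 6.40 in knockout (-1.72, adjusted p = 0.12). Padi3 (-1.03, adjusted p = 0.0665), Padi1 (-0.26) and Padi6 (0.01) did not pass either.

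Anln encodes anillin, the scaffold of the contractile ring that divides a cell. It stood at 7.41, 7.67 and 7.29 in wildtype and at 6.18, 5.93 and 5.74 in knockout, a difference of -1.51 ± 0.16 (SE, adjusted p = 0.00606). On placebo the order was turned, with 6.31, 6.24 and 6.41 in wildtype and 6.68, 6.61 and 7.03 in knockout. The gene's other probe set differed by -0.33 under estradiol.

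Of 30 estrogen target genes 3 fell, none rose, and 11 were lower and 2 higher without overlap, where 1.09% of all genes fell, 11.8% were lower and 10.5% higher without overlap. With 18 members below 0 (44.8% of all genes), the list's median was -0.23, and it was -0.10 without knockout estradiol array 1 and -0.39 without array 2. Pgr, the progesterone receptor, stood at 7.97, 8.68 and 8.40 in wildtype and at 5.86, 5.88 and 5.90 in knockout, a difference of -2.47 ± 0.34 (SE, adjusted p = 0.0151). The 3 knockout arrays were nearly equal, and lay above the 5.64, 5.18 and 5.04 of wildtype placebo and the 3.64, 4.03 and 5.15 of knockout placebo. On placebo Pgr thus differed by -1.01, with overlap of the arrays. Its other probe sets differed by -1.11 and -0.69 under estradiol. Tfap2c, a transcription factor of the AP-2 family in mammary epithelium, fell by 3.47, from 7.65, 9.68 and 8.57 to 5.12, 4.88 and 5.49. Stc2, a secreted glycoprotein, fell by 1.43.

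The other estrogen targets did not pass. Greb1, a coactivator of the estrogen receptor, stood at 10.05, 9.38 and 9.25 in wildtype and at 8.76, 8.77 and 8.32 in knockout. Its difference was -0.94 ± 0.27 (SE, 95% interval -1.54 to -0.34, adjusted p = 0.15) and was not called, although the arrays did not overlap. Mmd2, a membrane protein of the progestin receptor family, stood at 12.15, 12.51 and 12.65 in wildtype and at 12.89, 12.75 and 12.89 in knockout, a difference of 0.40 (95% interval 0.08 to 0.72, adjusted p = 0.257). On placebo Mmd2 lay between 5.96 and 6.88 on all 6 arrays, well below the estradiol arrays of either genotype. Xbp1 and Igf1 differed by -0.03 and 0.10.

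The receptors themselves showed no difference past the threshold. Esr1, which encodes estrogen receptor alpha, stood at 10.54, 10.25 and 10.28 in wildtype and at 10.004, 10.24 and 11.01 in knockout (0.06, 95% interval -0.81 to 0.93). Its sign rested on knockout array 3, without which the value was -0.24. Esr2 was near the lower end of the arrays in both genotypes (0.03, 95% interval -0.30 to 0.35), and its sign turned under quantile scaling and without any 1 of 3 arrays. Of 18 receptor and coregulator genes none was called, with 8 below 0 (44.8% of all genes) and 10 above.

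Of 15 genes of the EGF receptor family 1 fell, where 1.09% of all genes fell. Without overlap 5 were lower and 1 higher (11.8% and 10.5% of all genes). The gene that fell was Erbb3, a receptor with little kinase activity of its own that pairs with Erbb2. It stood at 9.24, 10.47 and 8.99 in wildtype and at 6.71, 7.12 and 7.27 in knockout (-2.53 ± 0.33, SE, adjusted p = 0.0122), but its other probe set differed by 0.24. Egfr (-0.68), Erbb2 (-0.49), Erbb4 (0.13) and the ligands, from Epgn at -1.95 (adjusted p = 0.14) to Nrg4 at 0.95, did not pass. The list's median was -0.30, and -0.08 with the mean of all probe sets of a gene. In the prolactin and Stat5 list of 10 genes Elf5 fell and no other member was called, with Stat5a at -0.34 and Socs2 at -0.03.

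In the Wnt and Notch list of 38 genes 2 fell and 19 were lower without overlap, at a median of -0.55, where 1.09% of all genes fell and 11.8% were lower without overlap. Dkk3, a secreted protein of the Dickkopf family, stood at 7.66, 8.0 and 7.51 in wildtype and at 6.13, 6.62 and 6.61 in knockout (-1.27 ± 0.17, SE, adjusted p = 0.0151). Fzd6, a Wnt receptor, fell by 1.50, although its other probe sets differed by -0.17 and 0.07. The ligand genes Wnt5b (-2.01, adjusted p = 0.0519) and Wnt5a (-1.89, adjusted p = 0.14) missed the threshold, and the ductal ligand Wnt4, which acts downstream of progesterone, differed by -0.65.

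In the TGF-beta list of 24 genes 1 fell, where 1.09% of all genes fell. It was the ligand Tgfb3, which went from 8.58, 9.79 and 9.03 in wildtype to 7.39, 7.10 and 6.84 in knockout (-2.02 ± 0.31, SE, adjusted p = 0.0191). Ltbp1, which holds latent TGF-beta in the matrix, differed by -1.54 (adjusted p = 0.0508). Without overlap 12 were lower (11.8% of all genes), and the median was -0.41, and -0.19 with the mean of all probe sets. In the IGF list of 14 genes Igfbp2, a binding protein for the growth factors, stood at 5.91, 5.78 and 5.84 in wildtype and at 4.64, 4.76 and 4.63 in knockout (-1.17 ± 0.15, SE, adjusted p = 0.0121). The list's median was -0.21, and it was -0.11 without knockout estradiol array 2, -0.33 without array 1 and -0.37 without wildtype estradiol array 2. Igf1 and Igf1r differed by 0.10 and -0.56. Of 20 immediate early genes none was called, 9 were lower without overlap (11.8% of all genes), and Fosl2 (-0.74, adjusted p = 0.0507) and Jun (-0.64, adjusted p = 0.0753) came nearest.

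Of 18 D-type cyclins, kinases and inhibitors Ccnd1 alone was called, where 1.12% of all genes were called. Ccnd2 stood at 11.29, 11.84 and 11.59 in wildtype and at 11.19, 11.66 and 12.14 in knockout (0.09, 95% interval -0.52 to 0.70), and Ccnd3 differed by 0.08 (95% interval -0.23 to 0.40). The sign of Ccnd2 turned without wildtype estradiol array 1 or knockout estradiol array 3, and that of Ccnd3 without wildtype estradiol array 2. Cdk4, the partner kinase, stood at 10.35, 10.37 and 10.44 in wildtype and at 9.92, 10.09 and 9.61 in knockout, arrays that did not overlap, with adjusted p = 0.238.

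Of 38 genes of E2F and DNA replication none was called, and 1 was lower without overlap (11.8% of all genes). The median of -0.13 turned its sign without wildtype estradiol array 2 (0.0085) and ran down to -0.36 without knockout estradiol array 2. E2f3 (-0.53, adjusted p = 0.0874) came nearest. Of 39 genes of G2 and mitosis 35 were below 0 (44.8% of all genes), Anln fell, and the median was -0.34. The median was -0.62 without knockout estradiol array 2, -0.19 without wildtype estradiol array 2 and 0.01 without knockout estradiol array 1, whose mean over the list was -0.78 against 0.29 and -0.26 on the other knockout arrays. Mki67, the proliferation antigen Ki-67, stood at 7.82, 8.52 and 8.52 in wildtype and at 6.95, 8.98 and 9.11 in knockout, which overlapped. Top2a (8.55, 9.42 and 8.68 against 7.35, 9.52 and 8.69) also overlapped. Knockout array 1 was also the poorest of the 3 in T and B cell genes, cells that divide in the lymph node, and the part of those cells in these values was not tested.

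Of 19 targets of p53 2 fell, where 1.09% of all genes fell. Perp, a tetraspan protein of desmosomes, stood at 8.04, 9.41 and 8.49 in wildtype and at 5.50, 4.96 and 4.57 in knockout (-3.64 ± 0.38, SE, adjusted p = 0.00606). Zmat3, an RNA-binding protein, fell by 0.65. Cdkn1a, the inhibitor p21, differed by -0.39 and Mdm2 by 0.11. Of the 19, 12 were below 0 (44.8% of all genes), and 3 were lower and 2 higher without overlap (11.8% and 10.5% of all genes).

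Most fibroblast markers had differences below 0 and most lymphocyte markers above 0, with 1 call among them. Of 27 fibroblast and matrix genes all 27 were below 0 and 19 were lower without overlap, with a median of -0.94, where 44.8% of all genes were below 0 and 11.8% lower without overlap. The membrane protease gene Mmp14 fell by 1.26, from 9.23, 9.87 and 10.08 to 8.66, 8.36 and 8.40. Pdgfrb differed by -0.74 (adjusted p = 0.0879) and Col1a1 by -0.82. The mean of the list was 0.96, 0.57 and 0.83 in wildtype and 0.31, -0.10 and -0.57 in knockout.

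Of 24 macrophage genes none was called and 23 were below 0 (44.8% of all genes), at a median of -0.73 that was -0.28 without wildtype estradiol array 1. That array had a list mean of 1.45, against 0.28 and 0.30 on the other wildtype arrays and -0.09, 0.21 and -0.19 in knockout. All 11 mast cell genes were below 0 (44.8% of all genes) with a median of -0.55, and none was called. In the Schwann cell list of 9 genes Sox10, which mammary epithelium also expresses, fell by 2.19, with other probe sets at -0.43 and -0.28, while Mbp and S100b differed by -1.31 and -0.49 and were not called.

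Markers of T cells (17 of 17 above 0) and B cells (16 of 17) each had a median of 1.06, with none called, where 44.8% of all genes were below 0. Their joint mean was -1.91, 0.63 and -2.10 in wildtype and -2.06, 1.45 and 0.26 in knockout, so wildtype array 2 lay with the richer and knockout array 1 with the poorer arrays. Over the fits that left out 1 array the median ran from 0.26 without knockout array 2 to 2.02 without knockout array 1 for T cells, and from 0.36 to 1.96 without the same arrays for B cells. Ms4a1, the B cell antigen CD20, stood at 3.61, 10.06 and 4.03 in wildtype and at 3.74, 10.90 and 9.78 in knockout. With the lymphocyte mean as a covariate limma called 1035 genes, 819 lower and 216 higher. Skeletal muscle genes had a median of -0.93 with list means of 1.17, -0.29 and 0.58 in wildtype and 2.09, -2.31 and -1.12 in knockout. Without knockout array 2 their median was 0.03, without knockout array 1 it was -2.42, and with the muscle mean as a covariate 136 genes were called. Lymphocyte and muscle means thus varied more within each genotype than between genotypes, whereas luminal, basal and fibroblast means did not overlap. Means of several other lists did not overlap either, among them macrophages, mast cells, Schwann cells, estrogen targets and the Wnt and Notch list. The part of the epithelial and fibroblast means in the calls was not tested.

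**Figure D4:**
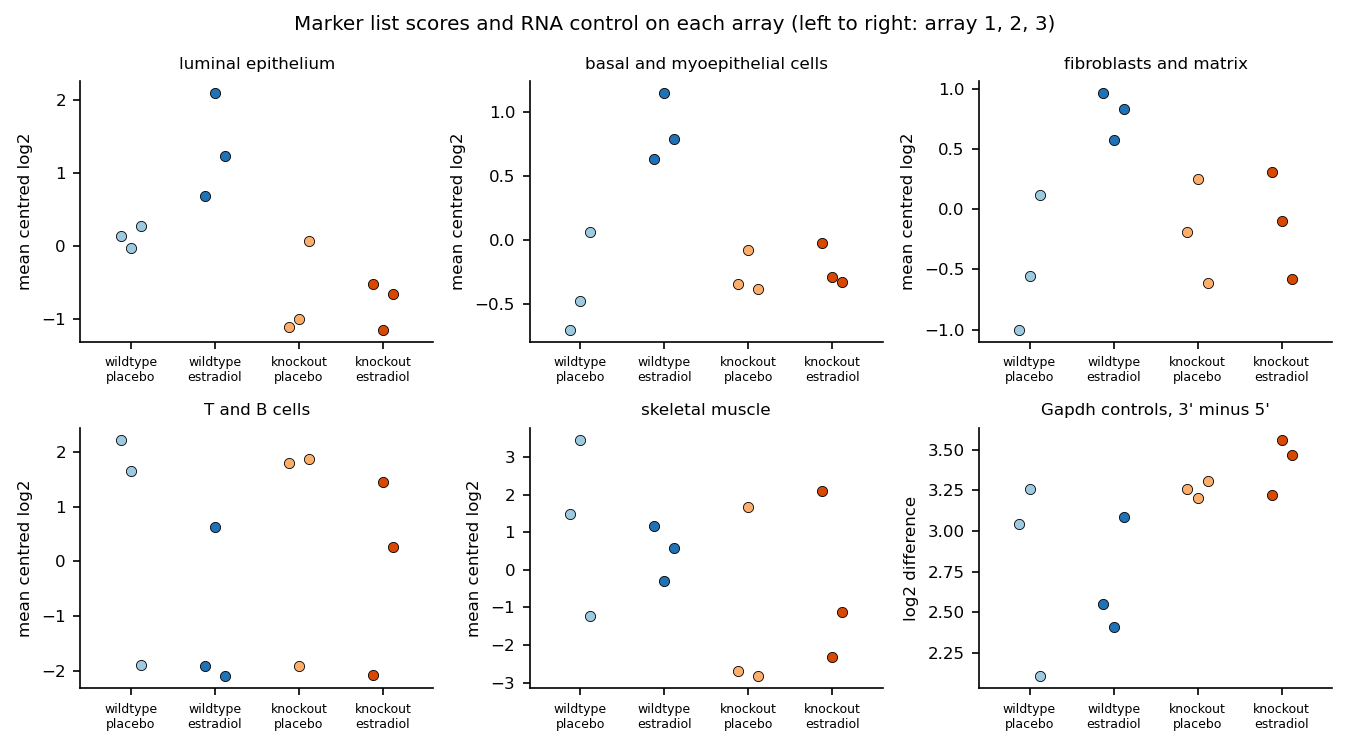
Mean centred log2 level of 5 marker lists, and the Gapdh 3' to 5' difference (log2), on each of the 12 arrays. Under estradiol the luminal, basal and fibroblast means of the 3 knockout arrays lie below those of the 3 wildtype arrays and the Gapdh difference above, while the T and B cell and the skeletal muscle means overlap.

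Of 16 white adipocyte genes none was called, 2 were lower and 2 higher without overlap (11.8% and 10.5% of all genes), and the median was 0.0038. It ran from -0.014 without wildtype estradiol array 2 to 0.095 without wildtype estradiol array 3. Lep, the leptin gene, differed by -0.97 (adjusted p = 0.23) and Gpd1, an enzyme of glycerol metabolism, by 0.92 (adjusted p = 0.24). No gene of oxidative phosphorylation, fatty acid synthesis or cholesterol synthesis was called. In oxidative phosphorylation 28 of 32 were above 0 and 7 were higher without overlap (median 0.25, and 0.11 without knockout array 1), against 10.5% of all genes. In fatty acid synthesis 15 of 17 were above 0 and 8 were higher without overlap (median 0.26), and in cholesterol synthesis 15 of 17 and 6 (median 0.54). Of all genes 44.8% were below 0 and 10.5% higher without overlap. Elovl6, an elongase of fatty acids, stood at 11.23, 11.25 and 11.12 in wildtype and at 12.77, 12.15 and 13.37 in knockout (1.56, adjusted p = 0.147). Acly, which makes acetyl-CoA from citrate, differed by 0.78 (adjusted p = 0.152).

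Of 15 glycolysis genes 11 were above 0 and 4 below 0 (44.8% of all genes), and 1 fell, where 1.09% of all genes fell. Aldoc, an aldolase, fell by 3.12, from 8.12, 10.10 and 9.09 to 5.84, 5.91 and 6.20, while its other probe set differed by -0.37. Pkm and Pfkl differed by 0.81 and 0.78 without a call. Interferon response genes (16 of 23 below 0), heat shock genes (8 of 10), clock genes (8 of 17) and ATF4 targets (9 of 18) had no called member, and 44.8% of all genes were below 0. Of 21 acute phase and secreted defence genes 3 fell, Cxcl15, Wfdc18 and Wfdc2, where 1.09% of all genes fell. Lcn2, an iron-binding defence protein, stood at 10.67, 11.69 and 11.47 in wildtype and at 8.84, 9.61 and 9.64 in knockout (-1.91, adjusted p = 0.176). No list had a member that rose.

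The 6 genes that rose were on no list and each rose by less than the median fall. Fgl1, a fibrinogen-like secreted protein, stood at 7.31, 7.02 and 7.62 in wildtype and at 8.60, 8.26 and 8.56 in knockout (1.16 ± 0.18, SE, adjusted p = 0.0193). On placebo Fgl1 lay between 6.03 and 6.59 on all 6 arrays, so that the level under estradiol was higher in both genotypes and highest in knockout. Pim1, a serine/threonine kinase induced by cytokines, stood at 9.06, 9.46 and 9.24 in wildtype and at 10.64, 9.82 and 10.47 in knockout (1.06). Hopx, a small homeodomain protein, rose by 0.94, from 9.24, 9.63 and 9.01 to 10.14, 10.25 and 10.31. Get4, a factor that helps insert tail-anchored proteins, Nt5dc1 and Zfand2b rose by 0.65, 0.59 and 0.49, and the other probe set of Get4 differed by -0.03. Sycp3, a protein of the meiotic chromosome axis, had a larger difference of 2.36 and missed the threshold (adjusted p = 0.0507), as did Mir124a-1hg, Gngt1 and Ndufb4, which lay between 3.87 and 5.55 on the 6 arrays.

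On placebo, glands of the same genotypes gave no call. Limma called 0 of 18193 genes (0%), with 370 at an unadjusted p under 0.05. Ccnd1 itself was not called there (-1.25, limma unadjusted p = 0.0025, adjusted p = 0.9999). The lack of calls therefore does not show that the genotypes were alike on placebo. Of the 198 genes that fell under estradiol, 119 (60.1%) were below 0 on placebo, as were 45.7% of all genes, and their median there was -0.07. Without overlap on placebo 21 of the 198 were lower, as were 1.81% of all genes, and 12 were higher, as were 4.9% of all genes. The placebo and estradiol differences share no array. They do share each gene's estimated spread, since 1 fit gave both.

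The genes with the largest falls differed among themselves in this respect. Ido1 read 4.89, 4.80 and 5.37 in wildtype placebo and 5.02, 4.40 and 5.16 in knockout placebo, and Cxcl15 read 5.36, 5.27 and 5.95 against 5.14, 5.29 and 5.85, so the genotypes overlapped in both genes. Dsp read 6.14, 5.86 and 6.38 in wildtype placebo and 3.50, 3.30 and 5.85 in knockout placebo. Elf5 read 6.34, 6.46 and 7.48 against 3.50, 3.88 and 6.24, and Krt19 read 7.50, 7.21 and 8.37 against 4.64, 5.70 and 7.73. In Dsp, Elf5 and Krt19 knockout placebo arrays 1 and 2 were low and array 3 lay near wildtype. The placebo arrays of the genotypes overlapped for Krt19, and for Dsp and Elf5 they did not. On placebo 21 of the 23 luminal genes and 7 of the 18 basal genes were below 0, where 45.7% of all genes were.

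**Figure D5:**
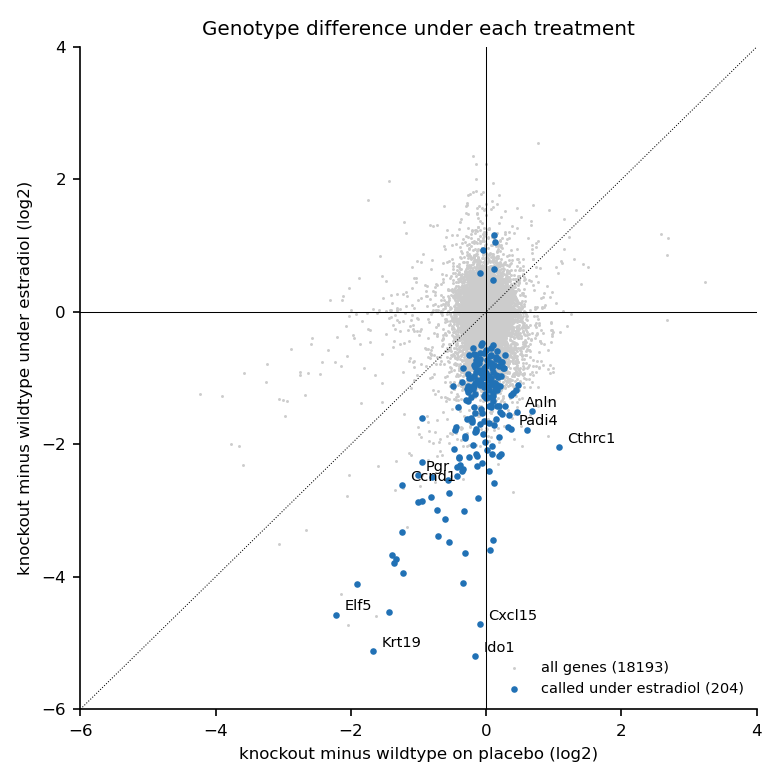
Knockout minus wildtype difference under estradiol (log2, vertical) against that on placebo (log2, horizontal), 1 point per gene, with the 204 genes called under estradiol in blue and a dotted line where both are equal. Of the 198 genes that fell under estradiol, 119 lie left of 0 on placebo.

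The difference under estradiol was tested against that on placebo as an interaction. It was called for 2 of 18193 genes (0.011%), Padi4 at -2.14 and Anln at -1.96 (adjusted p = 0.0378 each), while 1170 genes (6.43%) had an unadjusted p under 0.05. The next smallest p-values belonged to Prom2, a pentaspan membrane protein (-1.45, adjusted p = 0.089, its other probe set at -0.014 under estradiol), Actg2 (-2.40, adjusted p = 0.098) and Cthrc1, a secreted matrix protein (-3.11, adjusted p = 0.112), none of which passed. Cthrc1 stood at 7.54, 7.42 and 7.56 in wildtype estradiol and at 5.50, 5.90 and 5.01 in knockout estradiol. Both calls of the interaction were lost without any 1 of several arrays, among them each knockout placebo array, with Padi4 at -2.34 to -2.04 and Anln at -2.07 to -1.83 over the 12 fits. With the mean of its probe sets the interaction of Anln was -1.30.

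Promoter windows of RefSeq (GRCm38.p6, 300 bases, 250 before and 50 after a start) were matched by gene ID for 149 of the 198 genes that fell, 205 windows in all. Both strands were searched, and a window was counted once per motif. The palindromic estrogen response element was in 0 of the 205 windows and in 0.0278% of the 18009 windows of measured genes. AP-2 letters (GCCNNNGGC) were in 22.9% against 22.1%, E2F letters (TTTCCCGC or TTTGGCGC) in 2.93% against 2.34%, AP-1 letters (TGANTCA) in 9.27% against 6.35%, SOX letters (ACAAAG) in 19.5% against 15.9% and CHR letters (TTTGAA) in 12.7% against 13.4%. The shares of G and C bases were 60.4% and 58.5%. These are counts of letters near a start and say nothing of binding there or farther away.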

How the data were processed

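Mammary gland RNA of 12 mice was read on Affymetrix arrays, 1 mouse per array. The authors deposited normalised log2 intensities, whose scale was checked on the values; per the submitters' processing notes RMA and limma 2.9.16 were used, and a chip definition and genome build are not given in the sources used here. Arrays have no read depth, and their number limits the precision. Of 45101 probe sets 34945 had 1 gene in the platform table, 932 several and 9160 none, beside 64 controls; 9010 of 18193 genes had more than 1 probe set, of which the one brightest on average was kept. No filter on dim genes was applied.

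One limma fit (3.58.1, R 4.3.3) of 4 group means over 12 arrays with eBayes (8 residual and 2.15 prior degrees of freedom) gave every difference. Tests were two-sided with Benjamini-Hochberg adjustment across the 18193 genes, and genes were called at an adjusted p under 0.05. It was tested on simulated data. Replicates are separate mice per the series text. A list mean averages its members' log2 values after each gene was centred on its 12-array mean. Named genes are the fixed set Ccnd1, Ccnd2, Ccnd3, Esr1, Esr2, Pgr, Greb1, Mmd2, Anln and Padi4, the 12 largest calls each way (or the 10 of smallest p where under 10 were called), up to 4 called members per list or else the 2 of smallest p, and the 5 smallest interaction p-values. Genes described outside this rule were chosen after their values were seen. The comparison, the 39 lists (716 of 764 members measured) and the rule were chosen with earlier results of these data known; CHR was added after the promoter letters were seen. Covariates (lymphocyte and muscle list means, Gapdh 3' minus 5' difference) were also added later. The same-numbered estradiol arrays correlated at 0.19, 0.43 and -0.13 in their deviations from group means, so numbers were not taken to pair mice. Plots used matplotlib 3.10.9 (Python 3.11.15).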

Additional observations from a re-analysis of the deposited data

Results flagged for a closer look

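The genotype difference under estradiol differed by test from that on placebo for 2 genes. The interaction of Padi4 was -2.14 and that of Anln was -1.96, each at a limma adjusted p of 0.0378. For Padi4 the wildtype estradiol mean stood apart. In both genes the placebo difference had the opposite sign, at 0.36 for Padi4 and 0.45 for Anln. In both, 3 of 3 knockout placebo arrays lay above the 3 wildtype placebo arrays. For Padi4 1 wildtype placebo array lay under the lower quartile of its array. No explanation was tested.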

How the results depend on the processing

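Of 43 named calls none turned its sign under any setting tried, and 11 of them (Anln, Ccnd1, Cxcl15, Dkk3, Erbb3, Ido1, Igfbp2, Padi4, Perp, Prom2 and Slc5a8) were lost among the leave-one-out fits only without knockout estradiol array 3. In those fits a kept sign was certain, since the estradiol arrays of called genes did not overlap. Over those fits the count under estradiol ran from 0 to 315, that on placebo from 0 to 2, that of the interaction from 0 to 18, and the Ccnd1 difference from -2.95 to -2.22. The count of 204 under estradiol became 473 at an adjusted p under 0.10, 119 without the 40% dimmest genes, 428 with array weights (whose estimate stopped before it converged) and 47 with only the 6 estradiol arrays. It was 1035 with the lymphocyte mean and 0 with the Gapdh difference as a covariate. On placebo array weights gave 4. The 2 interaction calls became 0 without the dimmest genes, 1 with trend and robust priors, 84 with array weights, 4 with each probe set on its own, 78 with the lymphocyte mean, and 0 with the Gapdh difference or the muscle mean. Ccnd1 was not called with only the 6 estradiol arrays (-2.62, adjusted p = 0.0643) or with the Gapdh difference (-2.26, adjusted p = 0.173). The cause was not tested.

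With the replicate number as a block, which the check of pairing did not support, limma called 45 genes under estradiol and 0 in the interaction.

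Some values that were not called turned their sign when 1 array was left out. Alas2 ran from -1.47 to 0.39, with the highest value without knockout estradiol array 3. Ccnd2 ran from -0.15 to 0.33 and was -0.15 without knockout estradiol array 3 and -0.05 without wildtype estradiol array 1. Ccnd3 ran from -0.0011 (without wildtype estradiol array 2) to 0.16, and Esr1 from -0.24 (without knockout estradiol array 3) to 0.27. Esr2 ran from -0.0095 (without wildtype estradiol array 2) to 0.092 and was also below 0 without knockout estradiol array 1 (-0.0030) or 3 (-0.0028). Under quantile scaling Esr2 was -0.026, and with the mean of its probe sets Esrrb was -0.13. With the Gapdh difference as a covariate Cd6 was -0.32 and Vpreb3 -0.050.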

Other observations

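Of the 204 called genes 174 were on no list. Among those that fell were the serpin Serpinb5 (-2.73), the laminin chains Lama1 (-2.09) and Lama3 (-1.12), and the collagen chains Col4a5 (-2.28) and Col17a1 (-1.64, perhaps understated). Others were the claudins Cldn8 (-2.87, perhaps understated) and Cldn10 (-1.67) and the keratins Krt6a (-1.68), Krt77 (-1.97), Krt4 (-1.19) and Krt23 (-0.83). The integrins Itga8 (-2.15) and Itgav (-0.98) and the kinase Src (-0.92) also fell. All of these genes were chosen after their values were seen, and no count or test of a group goes with them.

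Of 13 measured genes that neighbour Ccnd1 in the RefSeq order, none was called under estradiol by limma. An unadjusted p under 0.05 was found for 2 of the 13, as it was for 2457 of all 18193 genes. The 2 were Ano1 (-2.24, adjusted p = 0.0551), a chloride channel, and Mrgprf (-1.52, adjusted p = 0.122). On placebo none was called and Fgf4 (0.28) had an unadjusted p under 0.05, as had 370 of all 18193 genes.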
